A study of Rattus norvegicus with 11 samples.

Results

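The arms of the miRNA miR-425 were followed in pancreatic islets of Sprague-Dawley rats at 2 ages, together with the neighbouring features that lie over the miR-191 gene. The rule took every sense row whose name began with miR-191, miR-191a or miR-425, whichever arm it was. It matched 2 of the 950 deposited rows, miR-425-5p and miR-425-3p, and 0 rows were matched by a miR-191 name, so the members are the miR-425 arms. Islets of 3-month-old males (adult, 6 libraries, labelled 12 weeks) were compared with islets of 10-day-old pups (P10, 5 libraries, labelled 1.5 weeks). All animals were labelled as controls, and the labels name no genetic change or agent. A sex label was used for the adults alone, so age cannot be told apart from sex, and it is not stated how many animals went into a library.

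A miRNA is cut from a hairpin transcript, and either arm of the hairpin (5p or 3p) can be loaded into an Argonaute protein. The arm then represses mRNAs that pair with its seed, the bases 2 to 8 from its 5′ end. In mammals miR-191 and miR-425 are known as neighbours within the gene Dalrd3, and both are widely expressed, also in blood cells. miR-191 is often used as a reference for PCR measurements of other miRNAs. In the RefSeq gene table (GRCr8), both the Mir191 and the Mir425 gene lie within the span of Dalrd3 on chromosome 8.

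The mature sequences of the locus are shown because they tell the arms apart and show how the neighbouring features relate to miR-191. They are RefSeq sequences (GRCr8), written 5′ to 3′ with the seed in capitals.
miR-425-5p: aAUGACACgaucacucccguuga
miR-425-3p: aUCGGGAAuaucguguccgcc
miR-191a-5p: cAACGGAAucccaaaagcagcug
miR-191a-3p: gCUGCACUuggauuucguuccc
miR-191b: gAACGAAAuccaagugcagcu
The 5 seeds differ from each other. Among the 724 mature miRNAs of the table, 0 others share the seed of either miR-425 arm, of miR-191a-5p or of miR-191b, and 1 other, miR-17-2-3p, shares that of miR-191a-3p. miR-17-2-3p averaged 0.402 CPM in adults and 0.796 CPM at P10 and did not pass the abundance filter.

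The hairpins show where each arm lies, with the mature arms in capitals.
Mir425: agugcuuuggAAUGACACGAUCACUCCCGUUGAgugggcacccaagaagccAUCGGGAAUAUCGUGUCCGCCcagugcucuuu
Mir191: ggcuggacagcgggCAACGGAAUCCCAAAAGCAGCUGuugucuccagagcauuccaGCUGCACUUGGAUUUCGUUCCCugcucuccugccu
The Mir425 hairpin has 83 bases and the Mir191 hairpin 91. RefSeq also lists a gene Mir3555, with the synonym Mir191b, on the opposite strand, and the reverse complement of its hairpin of 120 bases contains the whole Mir191 hairpin. The mature miR-191b, 21 bases long, shares a run of 20 bases with miR-191a-3p once reverse complemented.

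In the deposited table (Rnor_5.0) miR-425-5p lies at chr8:116699334-116699356 and miR-425-3p at chr8:116699375-116699395, both on the plus strand. The only other features within 100000 bases were 3 features named for miR-3555, which the table places on the minus strand. Of these, 2 were counted antisense, so that their reads lie on the plus strand as those of miR-425 do. miR-3555-3p antisense (chr8:116698877-116698897) starts 457 bases before miR-425-5p. In GRCr8 miR-191a-5p starts 453 bases before miR-425-5p, and by this distance the feature covers 17 of its bases. miR-3555-5p (chr8:116698922-116698942) starts 412 bases before miR-425-5p, the same distance as miR-191b in GRCr8. By that distance it overlaps miR-191a-3p, on the other strand, over 20 bases. The antisense features thus lie at the place and on the strand of the miR-191a arms, and they are described beside the members under the names the table gives them. Whether their reads carry the miR-191a sequences was not tested.

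The libraries held from 1430412 to 2841550 miRNA counts in adults and from 1594961 to 4468745 at P10, and 1 count stood for less than 1 CPM (counts scaled to a common total of 1000000 with TMM factors) in each of them. A read covers a whole arm, so levels were not divided by length. Islet identity was checked with endocrine marker miRNAs. The summed level of miR-375-3p, miR-7a-5p and miR-7b-5p was 252551 to 325899 CPM in adults and 113531 to 166473 CPM at P10. Nearly all of this sum was miR-375-3p, which averaged 287885 CPM in adults and 143152 CPM at P10. The edgeR quasi-likelihood test (adult minus P10, Benjamini-Hochberg adjustment over all 457 tested features, threshold 0.05) called 97 features higher and 135 lower in adults, 50.8% of those tested.

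Both arms of miR-425 were higher in adult islets. miR-425-5p, the more abundant arm, ranged from 473.1 to 539.7 CPM in adults, with a median of 491.7 CPM. At P10 it was at 143.0, 200.3, 256.4, 304.6 and 343.7 CPM in replicates 1, 3, 4, 5 and 6. Every adult library lay above every P10 library, and the adult values were close together while the P10 values spread more than 2-fold. The mean was 500.8 ± 29.4 CPM over the adult libraries (SD, n = 6), against 249.6 ± 80.2 CPM over those at P10 (SD, n = 5). This was a 2.00-fold rise (log2 1.00 ± 0.19, SE), which passed the test with an edgeR adjusted p = 0.000716. Of the 457 tested features 21.2% were called higher in adults. The ranges of the ages did not overlap for 30.0% of them, with adults above P10 for 13.6% and below it for 16.4%. Among the 97 features called higher, miR-425-5p had the 36th largest fold change. It was the 84th most abundant of 898 features in adults and the 121st at P10.

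miR-425-3p, the less abundant arm, ranged from 19.5 to 39.5 CPM in adults, with a median of 30.8 CPM, from 23 to 107 reads a library. At P10 it was at 10.9, 12.8, 21.6, 20.5 and 25.8 CPM in replicates 1, 3, 4, 5 and 6, from 19 to 124 reads. The groups overlapped, since adult replicates 1 (19.5 CPM) and 3 (23.4 CPM) lay below P10 replicate 6. The mean was 29.7 ± 7.57 CPM over the adult libraries (SD, n = 6), against 18.3 ± 6.27 CPM over those at P10 (SD, n = 5). Its log2 fold change was 0.69 ± 0.25 (SE), a 1.61-fold rise that passed the test (edgeR adjusted p = 0.0371). The call rests on few reads. It ended when adult replicate 2 (adjusted p = 0.0722), 4 (0.0771), 5 (0.0851) or 6 (0.0504), or P10 replicate 1 (0.0787) or 3 (0.0859) was left out, and with library totals alone (0.196, log2 change 0.44), all by edgeR.

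**Figure D1:**
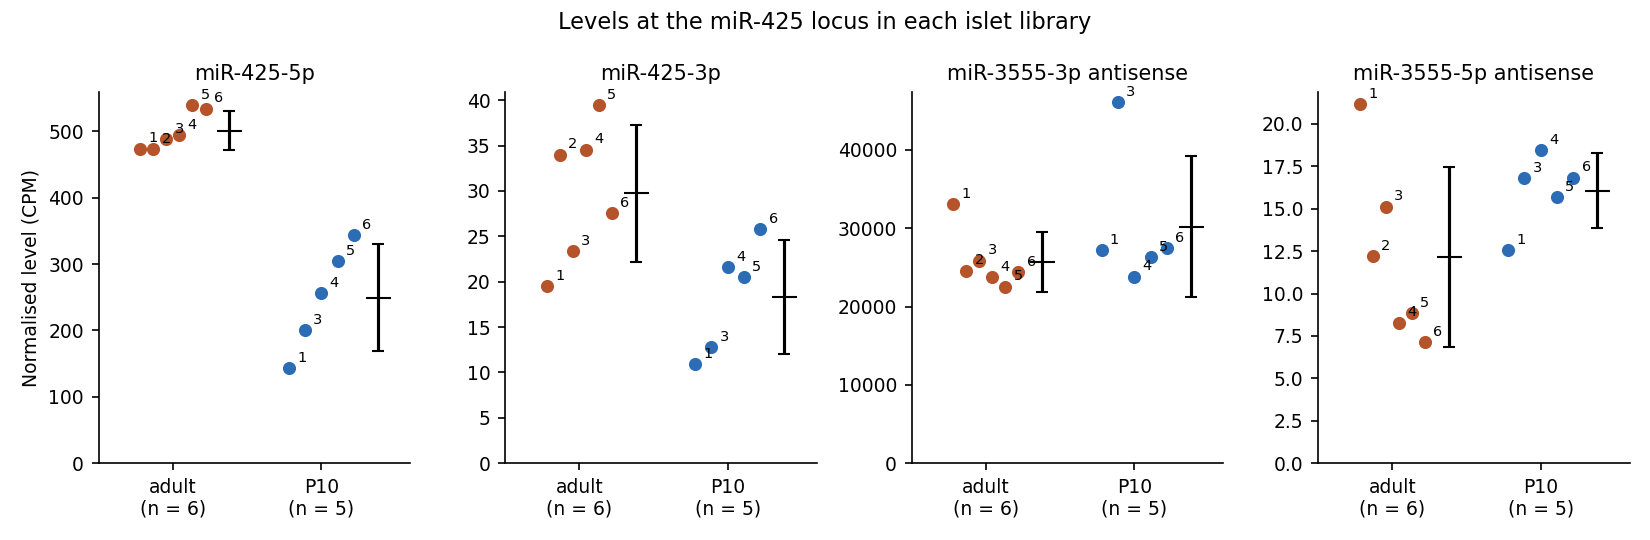
Normalised level (CPM, linear axes starting at 0) of the miR-425 arms and of the neighbouring miR-3555 antisense features, with a point for each library, numbered by replicate, and the mean ± SD as a black bar. The adult points of miR-425-5p lie between 473.1 and 539.7 CPM, above all P10 points, while the ages overlap for the other features.

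At P10 both arms of miR-425 were lowest in replicates 1 and 3 and highest in replicate 6. The summed endocrine level at P10, nearly all miR-375-3p, was 141133, 113531, 135886, 166473 and 161240 CPM in replicates 1, 3, 4, 5 and 6. This sum was higher in replicates 5 and 6 than in the other pups. The order of the pups was not the same throughout. Replicate 1, lowest in both arms of miR-425, had a higher endocrine sum than replicate 4. The summed mesenchymal level, mostly miR-143-3p, was highest in replicate 3 (60968 CPM) and lowest in replicate 1 (33171 CPM). The part of these marker levels in the spread of miR-425 at P10 was not tested. The ratio of the arms varied little at this age. Each read of miR-425-3p came with 13.1, 15.7, 11.9, 14.8 and 13.3 reads of miR-425-5p in P10 replicates 1, 3, 4, 5 and 6. In adults the ratio ran from 13.7 to 24.3, with a median of 16.9. The ages overlapped: adult replicates 1, 3 and 6 lay above all P10 libraries, and the other adult libraries lay within the P10 range.

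The mean log2 ratio of 5p to 3p (2 reads added to each count) was 4.06 ± 0.33 over the adult libraries (SD, n = 6), against 3.72 ± 0.14 over those at P10 (SD, n = 5). The difference was 0.34 ± 0.19 (SE) and was not called (limma over 127 precursors, adjusted p = 0.183). Of these precursors 26.8% were called. The miR-425 difference was the 71st largest in size of the 127. With the exact permutation test in place of limma, p was 0.0779, two-sided and not adjusted.

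The feature at the place of miR-191a-5p was far more abundant and gave another picture. miR-3555-3p antisense ranged from 22547 to 33115 CPM in adults, with a median of 24472 CPM. At P10 it was at 27238, 46147, 23808, 26302 and 27476 CPM in replicates 1, 3, 4, 5 and 6. The groups overlapped, and the highest values were those of adult replicate 1 and P10 replicate 3. It was the 9th most abundant feature at both ages. The mean was 25701 ± 3791 CPM over the adult libraries (SD, n = 6), against 30194 ± 9035 CPM over those at P10 (SD, n = 5). The log2 fold change was -0.23 ± 0.16 (SE) and was not called by edgeR (adjusted p = 0.252). With library totals alone, without TMM factors, it passed as lower (log2 change -0.48, edgeR adjusted p = 0.00320). That scaling shifted the median of all features by -0.27 (log2), and miR-425-5p still passed as higher (log2 change 0.74). As a share of library counts the feature held 2.35% ± 0.203 over the adult libraries (SD, n = 6), against 3.28% ± 0.620 over those at P10 (SD, n = 5).

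miR-3555-5p antisense, at the place of miR-191a-3p, was low. It ranged from 7.15 to 21.2 CPM in adults, with a median of 10.5 CPM, and was at 12.6, 16.8, 18.5, 15.7 and 16.8 CPM in P10 replicates 1, 3, 4, 5 and 6. The groups overlapped, with adult replicate 1 above all P10 libraries and adult replicates 2, 4, 5 and 6 below them. Its log2 fold change was -0.44 ± 0.26 (SE; edgeR adjusted p = 0.172). It passed as lower without adult replicate 1 (log2 change -0.64, edgeR adjusted p = 0.0338) and with library totals alone (-0.71, 0.0259). There were 1565 to 3408 reads of miR-3555-3p antisense for each read of miR-3555-5p antisense in adults, with a median of 2280. At P10 there were 2170, 2746, 1289, 1678 and 1632 in replicates 1, 3, 4, 5 and 6. The log2 ratio differed by 0.22 ± 0.24 between the ages (SE; limma adjusted p = 0.550, with antisense pairs included after seeing the data). The feature counted on the minus strand, miR-3555-5p sense, had 0 to 2 reads in adult libraries and 1 to 5 in P10 libraries and did not pass the abundance filter.

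The balance of the neighbours differed between the ages. In adults 41.8 to 69.8 reads of miR-3555-3p antisense were counted for each read of miR-425-5p, with a median of 49.98. At P10 there were 190.4, 230.4, 92.8, 86.3 and 79.95 in replicates 1, 3, 4, 5 and 6. Every adult library lay below every P10 library, and at P10 replicates 1 and 3 stood above the rest. The mean log2 ratio was 5.67 ± 0.25 over the adult libraries (SD, n = 6), against 6.94 ± 0.71 over those at P10 (SD, n = 5). The difference of -1.27 is a 2.41-fold lower ratio in adults and needs no scaling between libraries. The two-sided exact permutation test over the 11 libraries gave p = 0.00216, which is the smallest it can give. Ligation and PCR favour some sequences, so the ratio of reads is not a ratio of molecules, but it can be compared between libraries made with the same kit. The ratio shows unequal change. Under every scaling run miR-425-5p passed as higher, while miR-3555-3p antisense passed as lower with library totals alone and with no other scaling.

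**Figure D2:**
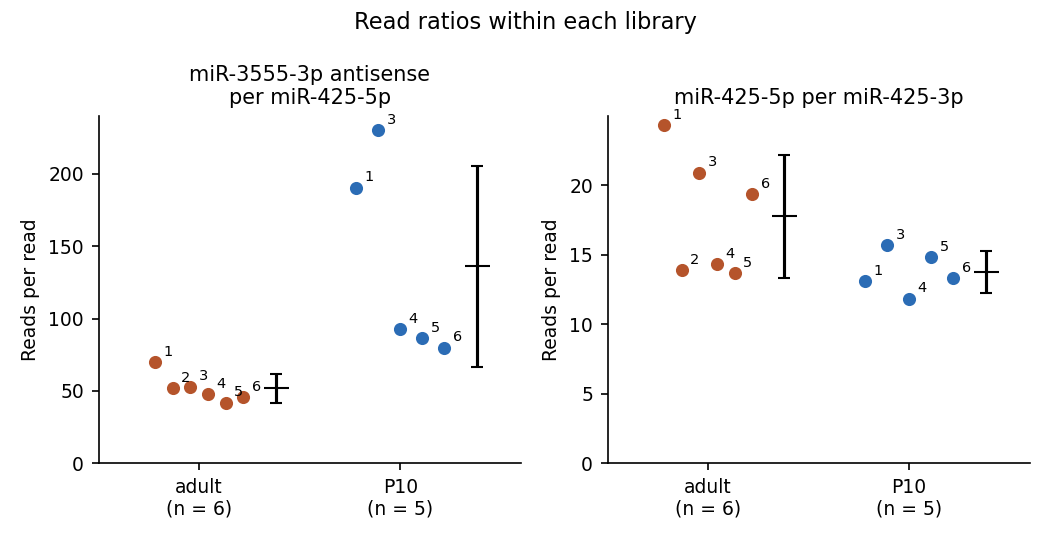
Reads of miR-3555-3p antisense per read of miR-425-5p, and reads of miR-425-5p per read of miR-425-3p (linear axes starting at 0), with a point for each library, numbered by replicate, and the mean ± SD as a black bar. The neighbour ratio is 41.8 to 69.8 in adults and 79.95 to 230.4 at P10, with no overlap, while the arm ratio overlaps between the ages.

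Neighbouring miRNAs elsewhere were set beside this pair in a fit chosen after seeing the data. It covered 111 pairs of leading arms on the same strand that start at most 10000 bases apart. The ratio of 42.3% of the pairs was called (limma adjusted p under 0.05), and the median size of the log2 difference was 0.46. The pair of miR-3555-3p antisense and miR-425-5p had the 8th largest difference (-1.27 ± 0.28, SE; limma adjusted p = 0.00286).

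For other cell types, 6 of 13 tested members of the mesenchymal, leukocyte, acinar and erythroid lists (46.2%) passed the edgeR test. Of all tested features 50.8% passed, 21.2% as higher in adults and 29.5% as lower. The 46.2% pools lists that differed in direction, so each list is also given alone. Of 4 tested mesenchymal members 0 rose and 3 fell, with a summed level of 17139 to 58197 CPM in adults and 33171 to 60968 CPM at P10. miR-143-3p, which is known from smooth muscle, makes up most of that sum (29208 ± 15073 CPM in adults, n = 6, and 41025 ± 11399 CPM at P10, n = 5, SD). Of 4 leukocyte members 0 rose and 1 fell (247.9 to 829.1 CPM in adults, 675.7 to 1422 CPM at P10, summed). The most abundant, miR-142-5p, was at 336.6 ± 209.7 CPM over the adult libraries (SD, n = 6), against 549.5 ± 195.8 CPM over those at P10 (SD, n = 5). Of 3 acinar members 2 rose and 0 fell (25.6 to 119.5 CPM in adults, 20.5 to 32.7 CPM at P10, summed), led by miR-217-5p at 38.5 CPM in adults and 9.69 CPM at P10. Neither of 2 tested erythroid members passed (14.5 to 63.8 CPM in adults, 24.2 to 72.3 CPM at P10, summed), and miR-451-5p averaged 28.2 CPM in adults and 35.2 CPM at P10. All 4 endocrine features rose, among them miR-375-3p (log2 change 1.01 ± 0.11, SE; edgeR adjusted p = 8.67e-06). They stand for 3 list entries, since miR-7a-5p was matched by the rows of separate loci. No row was matched to the endothelial list by name. In bulk islets, fewer cells of a type and less of a miRNA per cell cannot be told apart, and the part of these marker levels in the miR-425 result was not tested.

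The highest miR-3555-3p antisense values stood in the libraries with the highest mesenchymal sums of their age. Adult replicate 1 had a mesenchymal sum of 58197 CPM, against 17139 to 31734 CPM in the other adults. P10 replicate 3 had 60968 CPM, against 33171 to 47312 CPM in the other pups. Among those other pups, replicate 4 had the highest sum but the lowest miR-3555-3p antisense level (23808 CPM). Adult replicate 1 and P10 replicate 3 also had the lowest TMM factors of their age (0.826 and 0.933). The part of the mesenchymal level or of the TMM factor in these values was not tested. With both libraries left out, a choice made after seeing the data, the log2 change was 0.95 for miR-425-5p (edgeR adjusted p = 0.00466) and 0.70 for miR-425-3p (0.0492). It was -0.11 for miR-3555-3p antisense (0.281), and the neighbour ratio differed by -1.13 (two-sided exact permutation p = 0.00794). That p is the smallest possible for the remaining libraries. It could not come out otherwise, since the ages did not overlap in this ratio before the libraries were left out.

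The 15 tested features of miRNAs that commonly serve as PCR references include miR-425-5p itself. Of these 7 rose in adults, miR-425-5p among them, 2 fell and 6 did not pass. The median log2 fold change of the 15 was 0.29, against -0.11 over all 457 tested features. Of those 457 features 21.2% were called higher and 29.5% lower. miR-26a-5p rose to 7919 ± 846 CPM in adults, against 6074 ± 918 CPM at P10 (SD, n = 6 and 5; edgeR adjusted p = 0.0151). miR-186-5p rose to 5945 ± 153 CPM in adults, against 4495 ± 638 CPM at P10 (SD, n = 6 and 5; edgeR adjusted p = 0.00514). miR-30e-5p rose to 4738 ± 477 CPM in adults, against 3638 ± 889 CPM at P10 (SD, n = 6 and 5; edgeR adjusted p = 0.0480). miR-16-5p was at 7674 ± 702 CPM in adults and 6864 ± 2389 CPM at P10 (SD, n = 6 and 5) and did not pass (edgeR adjusted p = 0.507). Those that fell were miR-93-5p (log2 change -1.30) and miR-25-3p (-0.55), both from the miR-106b cluster.

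The spread of log2 CPM over the 11 libraries was ranked among 227 features that averaged at least 50 CPM. The smallest SD of all belonged to a reference, miR-103-2-3p (0.094, at 1432 ± 65.2 CPM in adults and 1531 ± 109 CPM at P10), and the next smallest to let-7a-5p (0.10). The other miR-103 feature among the references, miR-103-3p, had an SD of 0.20, the 22nd smallest. miR-425-5p ranked 164th (SD 0.64) and miR-3555-3p antisense 67th (SD 0.29), where the median feature had 0.40. Within the ages, the SD of miR-425-5p was 0.083 in adults, the 7th smallest, and 0.50 at P10, the 196th. With library totals alone its adult SD was 0.15, the 41st smallest. The largest SD among the references was that of miR-93-5p (0.70).

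**Figure D3:**
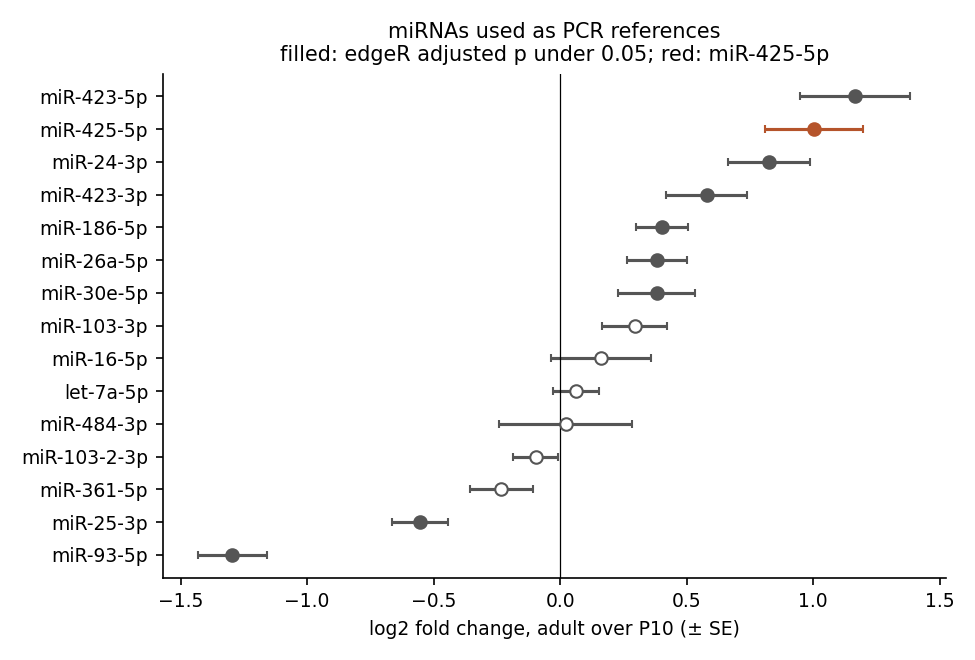
Log2 fold change (adult over P10, with its SE as the horizontal bar) of the reference miRNAs, ordered by size, with filled points where the edgeR adjusted p was under 0.05 and miR-425-5p in red. miR-425-5p (1.00) has the largest rise after miR-423-5p (1.17), and miR-93-5p (-1.30) the largest fall.

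The miRNAs whose level followed miR-425-5p most closely were found by the SD of their log2 ratio to it over the 11 libraries, among 199 other sense miRNAs that averaged at least 50 CPM. The closest was miR-141-5p, a miR-200 family arm (SD 0.17), followed by miR-3068-3p (0.23), then the abundant miR-27b-3p (0.26), then miR-22-3p (0.27) and the endocrine miR-375-3p (0.28). All 5 were higher in adults, which follows from choosing them by a near-constant ratio to a miRNA that was itself higher. miR-141-5p was at 273.2 CPM in adults and 148.7 CPM at P10, and miR-3068-3p at 210.6 CPM in adults and 103.8 CPM at P10. Once each age mean was removed miR-141-5p was still the closest (SD 0.15), the only 1 of the 5 that stayed among the nearest 5.

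For miR-3555-3p antisense the closest of 200 sense miRNAs were other ones. They were miR-30a-3p (SD of the log2 ratio 0.15), miR-30e-3p (0.16), miR-99a-5p (0.16), miR-99b-5p (0.16) and miR-183-5p (0.17). Of these, miR-99b-5p (log2 change -0.34, edgeR adjusted p = 0.0238) and miR-183-5p (-0.38, 0.0191) fell in adults, and the other 3 did not pass. Of all tested features 29.5% were called lower. Small age differences follow from choosing these miRNAs by a near-constant ratio to a feature that itself changed little.

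**Figure D4:**
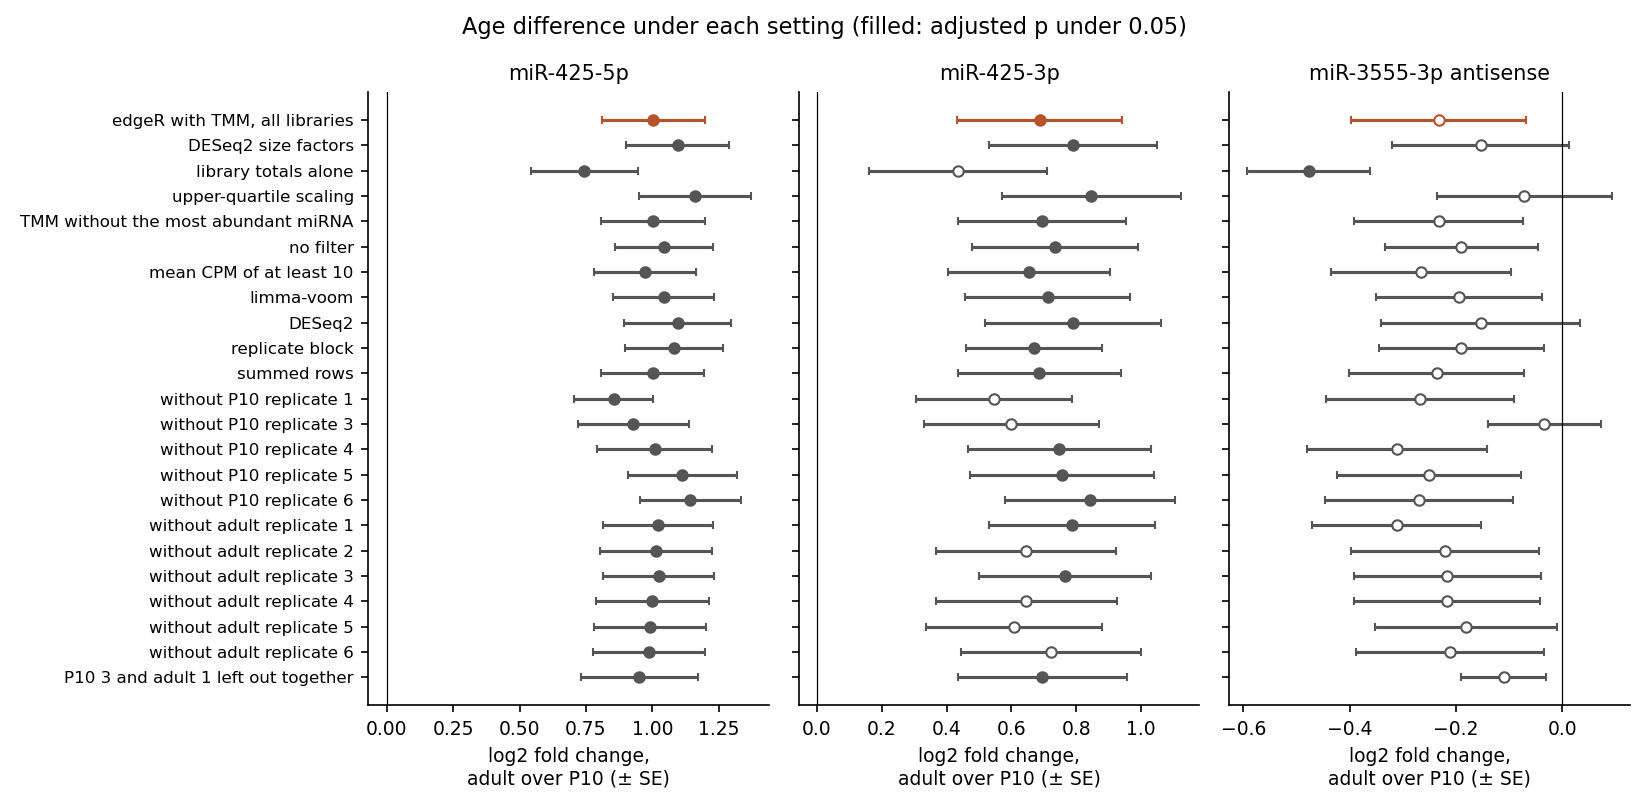
Log2 fold change (adult over P10, ± SE) of miR-425-5p, miR-425-3p and miR-3555-3p antisense under each setting, with filled points where the adjusted p was under 0.05. miR-425-5p stays between 0.74 and 1.16 and passes throughout, miR-425-3p loses its call in several settings, and miR-3555-3p antisense passes only with library totals alone.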

How the data were processed

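Small RNA of isolated rat islets was sequenced single-end with an Illumina TruSeq small RNA kit, per the labels. The authors deposited raw counts of reads for each miRNA arm and place, in Rnor_5.0 coordinates per the file headers. The submitters' processing notes name rn5, edgeR and DESeq. How reads were aligned and counted is not given in the sources used here. Counts are reads, as no molecular identifiers are described.

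The table of 950 rows equalled the tables of the single libraries. Rows of 1 name were merged by taking the highest count in each library (898 features). In R 4.3.3, edgeR 4.0.16 was used with its expression filter, TMM scaling and a robust quasi-likelihood fit, adult minus P10, adjusting p over all tested features. SE values come from the quasi-likelihood statistic. limma 3.58.1 tested read ratios with 2 reads added, and log2 CPM used a prior count of 2. DESeq2 1.42.0 was an alternative. The members, lists and tests were chosen with earlier results of these data known. By rule the text names every feature of the locus, same-seed miRNAs, the 5 nearest by ratio, the 4 most abundant references with those of smallest and largest SD, and the most abundant marker of each list. Other names were chosen after their values were seen. Libraries are labelled biological replicates, and in each pair of the same age the counts differed by more than sampling noise (chi-square at least 11.3 per degree of freedom). P-values set the age difference against the spread between these libraries.

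On simulated counts of 451 features for the age test, the test recovered 62% of the features given a 1.5-fold change and 91.8% of the features given a 2-fold change, and it called 8 of 254 unchanged features. The arm ratio step over 127 precursors recovered 25 of 25 changed 3-fold and called 1 of 102 unchanged. The simulation gave all features the same spread beyond sampling noise at both ages. In the data the spread differed between features and ages, so these shares need not hold there.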

Additional observations from a re-analysis of the deposited data

Results flagged for a closer look

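The normalised level of miR-3555-3p antisense had a sample far from the others at each age, out of 14 groups of values examined at this locus; chance flags about 1 in 20 groups. In adult replicate 1 it was at 33115 CPM, where the nearest other adult library had 25867 CPM. In P10 replicate 3 it was at 46147 CPM, where the nearest other pup library had 27476 CPM. As a share of library counts the same libraries were highest of their age, with 2.73% in adult replicate 1, against 2.15% to 2.37% in the other adults, and 4.30% in P10 replicate 3, against 2.70% to 3.35% in the other pups. The flags were raised on CPM, which is divided by the TMM factor. Both libraries had the lowest TMM factor of their age (0.826 in adult replicate 1 and 0.933 in P10 replicate 3), and their gaps were narrower as shares than in CPM. miR-425-5p was at 474.1 CPM in adult replicate 1 and 200.3 CPM in P10 replicate 3, within the range of its age.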

How the results depend on the processing

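miR-425-5p stayed higher and past the threshold in all 22 alternatives (log2 change 0.74 to 1.16, adjusted p 3.56e-07 to 0.00678). The neighbour ratio stayed lower in all 17 (-1.42 to -1.04, highest p 0.00794), and the arm ratio of miR-425 did not pass in any of 17 (0.25 to 0.40, lowest p 0.0779). As the ages do not overlap in the neighbour ratio, its permutation p with a library left out could only be the smallest possible. Those p-values therefore add no support, and only the size of the difference could vary. With library totals alone 54 features were higher, against 97, 22.4% of calls were higher in adults (41.8% with TMM, 55.2% with upper-quartile scaling, 51.5% with DESeq2's size factors), and the log2 change was 0.44 for miR-425-3p, -0.48 for miR-3555-3p antisense and -0.71 for miR-3555-5p antisense. Leaving out each library gave 86 to 97 features higher and 108 to 137 lower. The log2 change then ran from 0.85 to 1.14 for miR-425-5p, 0.55 to 0.84 for miR-425-3p, -0.31 to -0.03 for miR-3555-3p antisense and -0.64 to -0.32 for miR-3555-5p antisense. The adjusted p of miR-425-3p ranged from 0.00833 to 0.196 over its alternatives. Of the 5 nearest miRNAs, 1 was shared for miR-425-5p and 3 for miR-3555-3p antisense once age means were removed, and 3 for each with a mean CPM of at least 500. The numbers shared by the labels of both ages did not pair the libraries (correlation of deviations from -0.21 to 0.20, with 0 of 5 pups closest to the adult of the same number). With the replicate block 93 features were higher and 112 lower, against 97 and 135 without it. The log2 change was then 1.08 for miR-425-5p, 0.67 for miR-425-3p and -0.19 for miR-3555-3p antisense. The arm ratio differed by 0.40 and the neighbour ratio by -1.27, and no call at this locus changed. The causes of the changes above were not tested.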
